A study of Mus musculus with 11 samples.

Results

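Expression of 10 genes of primitive and definitive endoderm was followed across pluripotent and source cells of the mouse. The genes were Gata6, Sox17, Sox7, Foxa2, Hnf4a, Dab2, Amn, Cubn, Afp and Ttr. All probe sets that the platform annotation assigns to 1 of these symbols were taken, which gave 28 of the 45101 probe sets on the array and 10 of the 18193 genes with a probe set of a single symbol. Pluripotent cells were of 3 kinds, with 3 arrays each: cells induced from ventricular myocytes (ViPSC), cells induced from tail tip fibroblasts (TiPSC) and embryonic stem cells labelled as genetically matched (mESC). Source cells had 1 array of ventricular cardiomyocytes (VM) and 1 of tail tip fibroblasts (TTF). VM and TTF came from pups at postnatal day 1. The genetic background was C57/Bl and BlackSwiss, mixed, in every group. The 3 pluripotent groups were described as undifferentiated, were grown with LIF and serum on irradiated embryonic fibroblast feeders, and were separated from the feeders by plating for RNA extraction. The labels do not say how many lines or cultures the arrays of a group came from, so p-values measure the spread between these arrays. VM and TTF had no replicates.

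In the mouse assembly GRCm38.p6 (RefSeq), the transcription factor genes lie at chr18:11052510-11085636 (Gata6), chr1:4490928-4497426 (Sox17), chr14:63943706-63950732 (Sox7), chr2:148042877-148046969 (Foxa2) and chr2:163506811-163572907 (Hnf4a). The endocytic genes lie at chr15:6299788-6440715 (Dab2), chr12:111271096-111276426 (Amn) and chr2:13276338-13491876 (Cubn), and the genes of secreted proteins at chr5:90490714-90508907 (Afp) and chr18:20664209-20674326 (Ttr). All are protein-coding.

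Primitive endoderm is the extraembryonic lineage that separates from the epiblast in the blastocyst and forms the visceral and parietal endoderm of the yolk sac. GATA factors and the Sox17 and Sox7 transcription factors drive it, while Nanog and the other epiblast factors hold it back. Visceral endoderm takes up maternal protein through the receptor cubilin with its partner amnionless and the adaptor Dab2, and secretes serum proteins such as alpha-fetoprotein and transthyretin. Definitive endoderm, the source of gut and liver, arises later from the primitive streak and also uses Sox17 and Foxa2. Outside endoderm, Gata6 is a gene of the developing heart, Sox7 and Sox17 are genes of vascular endothelium, and Dab2 is made by fibroblasts and macrophages.

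Values are log2 expression values from RMA, which corrects background, normalizes between arrays and gives 1 value per probe set. The median over all probe sets lay between 4.67 and 4.77 on the 11 arrays, and values near or below it have no detection call here. RMA compresses differences at that level. One array stood apart from its own group. Over all probe sets, mESC 1 correlated at 0.989 with mESC 2 and 0.986 with mESC 3, and at 0.992 to 0.993 with the 6 induced arrays. Across probe sets, mESC 2 and mESC 3 correlated at 0.991 with each other. Comparisons with mESC are therefore also given without mESC 1. The endoderm values of mESC 1 were known when it was set apart, so results without it are descriptive. Pou5f1, the pluripotency regulator, lay between 12.73 and 13.05 on all 9 pluripotent arrays, against 3.73 in VM and 3.94 in TTF.

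Gata6, the zinc finger factor that opens the primitive endoderm program, was below the array median on 8 of the 9 pluripotent arrays. Its probe set 1425464_at read 4.17, 4.40 and 4.50 in ViPSC, 4.39, 4.14 and 4.35 in TiPSC, and 7.01, 4.09 and 3.89 in mESC 1, mESC 2 and mESC 3. The value of mESC 1 was higher than that of every other pluripotent array, and the remaining mESC arrays lay below all 6 induced arrays. In the source cells this probe set read 10.84 in VM and 4.95 in TTF. A second Gata6 probe set, 1425463_at, had the same high arrays, with 4.65 in mESC 1, 3.78 to 4.03 on the other pluripotent arrays, 9.43 in VM and 4.07 in TTF. The third, 1443081_at, stayed between 3.50 and 4.14 on all 11 arrays and so did not follow the others.

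Sox17, the SRY-box factor shared by primitive and definitive endoderm, read 3.84, 3.90 and 3.95 in ViPSC, 3.57, 3.74 and 3.65 in TiPSC and 5.64, 3.62 and 3.75 in mESC with 1429177_x_at. Again mESC 1 was the high array, here above the array median, while the other 8 lay below it. The second probe set, 1421657_a_at, read 5.21 in mESC 1 and 3.78 to 4.27 on the other pluripotent arrays. Both were high in VM, at 8.64 and 8.85, against 3.37 and 3.53 in TTF.

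Sox7, its relative in primitive endoderm and endothelium, was above the array median on every array by 1416564_at. It read 6.26, 6.11 and 6.33 in ViPSC, 5.998, 6.14 and 5.86 in TiPSC, and 6.95, 6.75 and 6.36 in mESC. All 3 mESC arrays were above all 6 induced arrays, mESC 3 by a narrow margin. VM read 10.79 and TTF 5.00. The second Sox7 probe set, 1432495_at, stayed between 3.53 and 4.45 on all arrays.

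Foxa2, the forkhead factor of visceral and definitive endoderm, has 1 probe set and was low throughout. It read 3.37, 3.59 and 3.72 in ViPSC, 3.85, 3.98 and 3.83 in TiPSC and 4.58, 3.59 and 3.42 in mESC, with 3.81 in VM and 3.79 in TTF. mESC 1 was the highest array, still just under the array median. Hnf4a, the nuclear receptor of visceral endoderm and hepatocytes, was flat: its 4 probe sets each varied by 0.19 to 0.47 log2 units over the 9 pluripotent arrays, and 1450447_at, the highest, read 4.69 to 5.17 there, 5.31 in VM and 4.96 in TTF.

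Cubn, the cubilin receptor of the yolk sac and kidney, had the widest range of all members. Its probe set 1452270_s_at read 3.46, 3.23 and 3.18 in ViPSC, 3.44, 3.18 and 3.63 in TiPSC, and 8.63, 3.27 and 3.34 in mESC, with 4.08 in VM and 4.24 in TTF. The second, 1426990_at, read 7.34 in mESC 1 and 3.21 to 3.64 on the other 8 pluripotent arrays. Cubn was thus well above the array median on mESC 1 and below it on all 10 other arrays. Dab2, the clathrin adaptor that drives internalization of this receptor complex, read 4.87, 5.02 and 4.57 in ViPSC, 4.98, 5.28 and 5.02 in TiPSC and 7.90, 4.59 and 4.58 in mESC by 1420498_a_at. On this probe set mESC 1 stood above the other pluripotent arrays, and both source cells were higher still, with 8.97 in VM and 8.92 in TTF. The other 3 Dab2 probe sets read 3.09 to 4.47 on all pluripotent arrays, with mESC 1 at 3.80, 4.29 and 4.01.

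Amn, the amnionless protein that carries cubilin to the cell surface, differed from these genes in being present above the array median in all pluripotent cells. Its single probe set, 1417920_at, read 6.25, 6.35 and 6.20 in ViPSC, 6.31, 6.10 and 6.23 in TiPSC, and 8.03, 6.98 and 7.39 in mESC, against 5.29 in VM and 4.79 in TTF. The 6 induced arrays lay within 0.25 log2 units of each other, and all 3 mESC arrays were above them.

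The promoters of these 3 endocytic genes are shown because their proteins work in 1 receptor complex while their levels followed different patterns, Cubn and Dab2 high on mESC 1 and Amn high on all 3 mESC arrays. Each sequence holds the 250 bases before the annotated start in RefSeq (GRCm38.p6), read 5′ to 3′ on the strand of the gene. They lie at chr2:13491877-13492126 on the minus strand for Cubn, chr12:111270846-111271095 on the plus strand for Amn and chr15:6299539-6299788 on the plus strand for the first of 2 annotated Dab2 starts. Capitals mark matches to 3 motifs searched on both strands, a GATA motif (AGATAA or AGATAG or TGATAA or TGATAG), a forkhead motif (TGTTTAC or TATTTAC or TGTTTGC or TATTTGC) and a SOX motif (ACAATG or ACAATA or ACAAAG).
Cubn promoter: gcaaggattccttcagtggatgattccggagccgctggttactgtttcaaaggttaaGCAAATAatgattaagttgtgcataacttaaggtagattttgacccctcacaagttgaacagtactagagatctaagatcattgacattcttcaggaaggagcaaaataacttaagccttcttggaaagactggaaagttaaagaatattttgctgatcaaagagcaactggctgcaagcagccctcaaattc
Amn promoter: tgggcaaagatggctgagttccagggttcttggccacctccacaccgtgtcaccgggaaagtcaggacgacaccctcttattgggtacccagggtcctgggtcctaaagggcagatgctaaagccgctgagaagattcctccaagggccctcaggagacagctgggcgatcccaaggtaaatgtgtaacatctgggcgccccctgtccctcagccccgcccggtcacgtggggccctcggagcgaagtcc
Dab2 promoter: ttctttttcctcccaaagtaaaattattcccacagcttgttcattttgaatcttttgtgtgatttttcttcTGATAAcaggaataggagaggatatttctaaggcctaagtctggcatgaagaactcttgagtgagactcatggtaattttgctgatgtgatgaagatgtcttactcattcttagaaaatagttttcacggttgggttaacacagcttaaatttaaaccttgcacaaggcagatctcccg
The Cubn window held 1 forkhead match and the Dab2 window 1 GATA match, starting 193 and 179 bases before the start, and the Amn window held none of the 3. The window at the second Dab2 start (chr15:6386498-6386747) also held none. Of 32851 annotated promoter windows of this length, 26.54% held the GATA motif, 11.88% the forkhead motif and 30.51% the SOX motif, and a match describes the letters only.

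Afp and Ttr, the secreted proteins of visceral endoderm and fetal liver, were low in all pluripotent cells. The 5 Afp probe sets read 2.70 to 4.86 on the 9 pluripotent arrays. The widest range was that of 1416645_a_at, which read 2.98, 3.04 and 3.09 in ViPSC, 2.87, 3.04 and 2.86 in TiPSC and 3.26, 3.04 and 3.99 in mESC. There mESC 3 and not mESC 1 was the highest array, at a level still under the array median. The 4 Ttr probe sets read 2.57 to 5.08 on the pluripotent arrays, and each was highest on mESC 1, by at most 0.48 log2 units over the next array. Ttr probe set 1459737_s_at read 3.60, 3.79 and 3.67 in ViPSC, 3.71, 4.19 and 3.88 in TiPSC and 4.67, 3.79 and 4.13 in mESC, against 5.72 in VM and 3.74 in TTF.

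**Figure D1:**
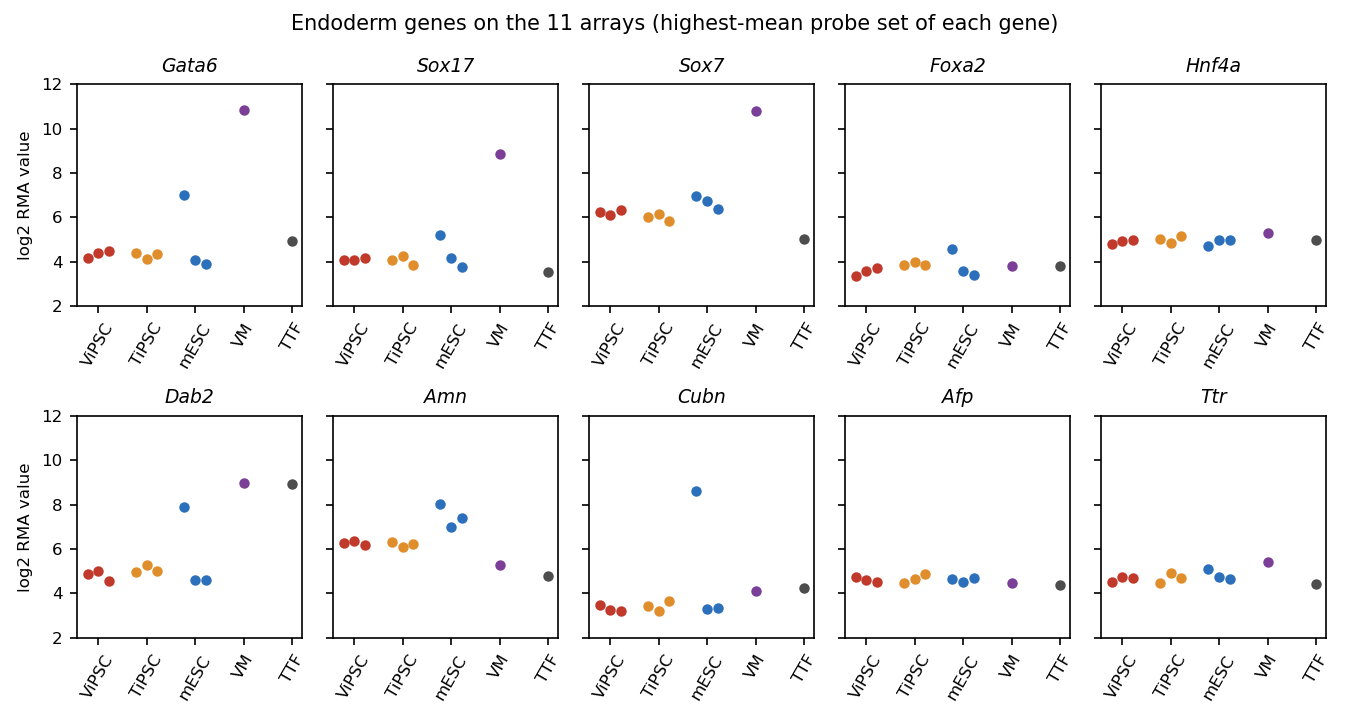
Log2 RMA value (vertical axis) of the highest-mean probe set of each of the 10 endoderm genes in ViPSC, TiPSC and mESC (3 arrays each) and in VM and TTF (1 array each), 1 point per array. Of the mESC points, that of mESC 1 stands apart for Gata6, Dab2 and Cubn (7.01, 7.90 and 8.63), all 3 mESC points lie above the induced arrays for Amn, and VM is high for Gata6, Sox17, Sox7 and Dab2.

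Both kinds of induced cells were then set against mESC, with 1 mean per group in limma over all 45037 probe sets that are not controls. Of the 28 endoderm probe sets, only that of Amn passed an adjusted p of 0.05 in ViPSC against mESC, where 1.22% of all probe sets passed. The unadjusted limma p was under 0.05 for 5 of the 28, against 14.6% of all. Amn averaged 6.27 ± 0.08 in ViPSC and 7.47 ± 0.53 in mESC (SD, n = 3 each), a difference of -1.20 ± 0.21 log2 units (SE, limma adjusted p = 0.0363). The call was lost when any 1 of the 6 induced arrays was left out, at limma adjusted p from 0.0521 to 0.163. In TiPSC against mESC none of the 28 passed, against 0.213% of all probe sets. At an unadjusted p under 0.05 it was 6 of the 28, against 14.7% of all. Amn averaged 6.21 ± 0.10 in TiPSC with a difference of -1.25 ± 0.21 (SE, limma adjusted p = 0.0625). It passed without mESC 2, at -1.50 (limma adjusted p = 0.0350). Values did not overlap between groups for 7 of the 28 probe sets in ViPSC against mESC and for 5 in TiPSC against mESC, all of them lower in the induced cells, against 18.8% and 14.2% of all probe sets in either direction. Without mESC 1 the same 7 and the same 5 were lower, and 2 (Gata6 and Sox17) and 3 (Gata6, Dab2 and Foxa2) were higher in the induced cells, against 37.9% and 33.5% of all probe sets. The 7 belonged to Sox7, Amn, Dab2, Cubn, Hnf4a, Afp and Ttr, and apart from Amn, Sox7 and the Cubn value of mESC 1 their values were at or below the array median. The 2 comparisons share the mESC arrays and so are not independent.

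The Amn difference and its standard error were smaller without mESC 1, at -0.92 ± 0.13 in ViPSC (limma adjusted p = 0.00357) and -0.97 ± 0.13 in TiPSC (adjusted p = 0.00264) against the other mESC arrays. In that fit 8.36% and 9.61% of all probe sets passed in these comparisons. Sox7 differed by -0.45 ± 0.15 in ViPSC (SE, limma adjusted p = 0.185) and by -0.69 ± 0.15 in TiPSC (adjusted p = 0.106) against all 3 mESC arrays. Without mESC 1 the Sox7 difference was -0.32 ± 0.14 in ViPSC (limma adjusted p = 0.218) and -0.56 ± 0.14 in TiPSC (adjusted p = 0.0369). Without mESC 3 it was -0.62 in ViPSC (limma adjusted p = 0.0375) and -0.85 in TiPSC (adjusted p = 0.0433).

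For the probe sets of Cubn, Gata6 and Dab2 given here, high only on mESC 1 among the pluripotent arrays, the group difference rested on that array. Cubn (1452270_s_at) averaged 3.29 ± 0.15 in ViPSC, 3.42 ± 0.23 in TiPSC and 5.08 ± 3.08 in mESC (SD, n = 3 each). The Cubn difference was -1.79 log2 units in ViPSC against mESC, with a 95% interval of -4.40 to 0.82 (limma adjusted p = 0.540), and -0.01 ± 0.14 (SE) without mESC 1. Gata6 (1425464_at) differed by -0.64 ± 0.66 in ViPSC (SE, limma adjusted p = 0.735), and without mESC 1 the sign turned, to 0.37 ± 0.13 (adjusted p = 0.132). Dab2 (1420498_a_at) differed by -0.87 ± 0.73 in ViPSC (SE, limma adjusted p = 0.654) and by 0.24 ± 0.14 without mESC 1 (adjusted p = 0.414). In TiPSC against mESC the same probe sets differed by -1.67 for Cubn, -0.70 for Gata6 and -0.60 for Dab2, and by 0.11, 0.30 and 0.51 without mESC 1, none of them past the threshold.

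**Figure D2:**
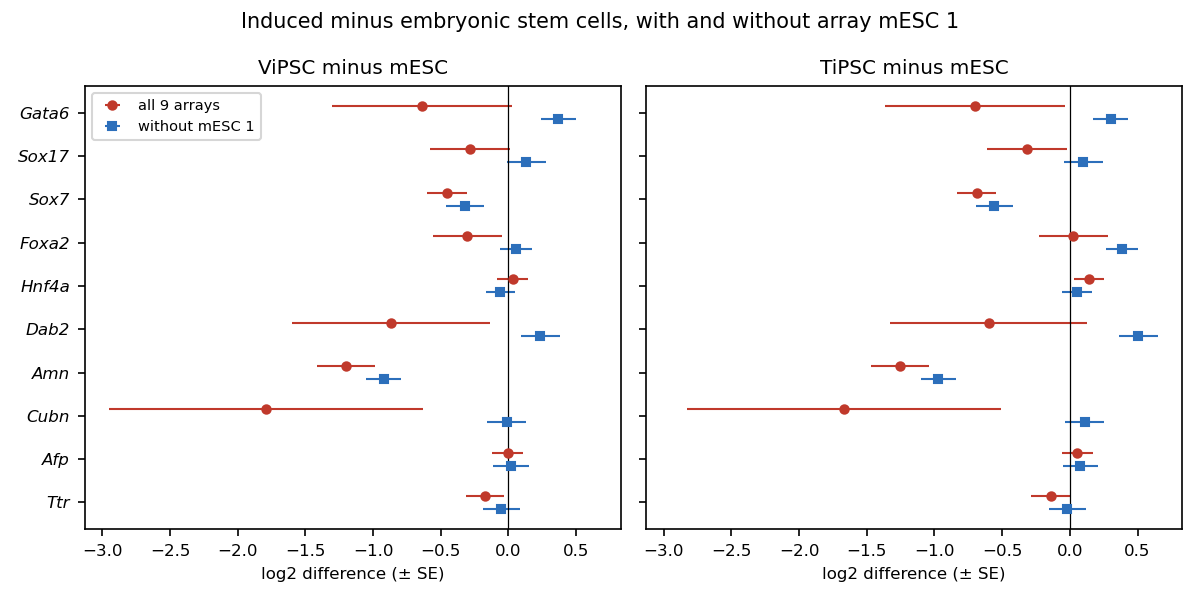
Log2 difference of ViPSC minus mESC (left) and TiPSC minus mESC (right) for the highest-mean probe set of each gene, with standard errors from limma as bars. Red circles use all 9 pluripotent arrays and blue squares leave out mESC 1: Amn stays near -1 in both, while Cubn moves from -1.79 to -0.01 in ViPSC.

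Between the 2 kinds of induced cells no endoderm probe set passed in limma, against 3.91% of all probe sets. At an unadjusted p under 0.05 it was 0 of the 28, against 18.0% of all, and the lowest adjusted p was 0.461, that of Sox7. Sox7 averaged 6.23 ± 0.11 in ViPSC and 5.997 ± 0.14 in TiPSC (SD, n = 3 each), a difference of 0.24 log2 units with a 95% interval of -0.09 to 0.57. Values did not overlap for 3 of the 28 probe sets, against 28.2% of all: Foxa2 was lower in ViPSC (-0.33 ± 0.25, SE, limma adjusted p = 0.571) and 1 probe set each of Sox17 and Dab2 was higher. Amn differed by 0.05 log2 units between ViPSC and TiPSC (limma adjusted p = 0.937).

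Each pluripotent array was next set against the median of the other 8. For an mESC array 6 of those 8 are induced arrays. A difference shared by all mESC arrays, as for Amn, therefore counts on mESC arrays and hardly on induced arrays. On mESC 1, 7 of the 28 endoderm probe sets lay at least 1 log2 unit above that median, against 0.269% of all probe sets. They belonged to Cubn (5.33 and 3.94 above), Dab2 (2.98), Gata6 (2.75), Sox17 (1.90 and 1.14) and Amn (1.75). On mESC 3 it was 1 of 28, that of Amn, against 1.06% of all, and on mESC 2 it was 0, against 1.32%. No endoderm probe set reached that step on any of the 6 induced arrays, against 0.671%, 0.264% and 0.295% of all probe sets on ViPSC 1, 2 and 3 and 0.218%, 0.0977% and 0.373% on TiPSC 1, 2 and 3. The median deviation of the 28 was 0.41 on mESC 1 and between -0.08 and 0.02 on the other 8 arrays, where the median of all probe sets was between -0.01 and 0.01 on every array. mESC 1 was set apart here because of these values, so the counts are a description of 1 array and no test was made.

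**Figure D3:**
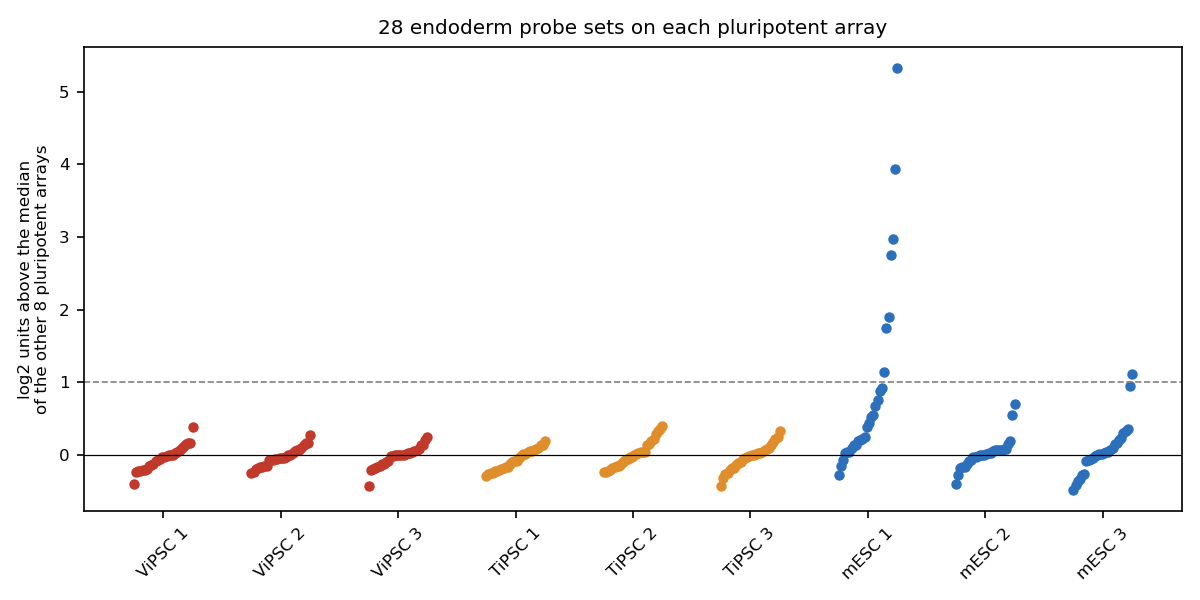
Deviation of each of the 28 endoderm probe sets from the median of the other 8 pluripotent arrays (vertical axis, log2 units), 1 point per probe set, for every pluripotent array, with a dashed line at 1. On mESC 1, 7 points lie above the line, up to 5.33, and on mESC 3 there is 1.

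Other genes of these lineages were read on mESC 1 in the same way. Of 47 probe sets for 26 further genes of primitive, visceral and parietal endoderm, 8 were at least 1 log2 unit above the median of the other arrays, for 7 genes. Of all probe sets 0.269% were. This list was chosen with earlier results of these data known, so the count is a description and not a test. Srgn, the proteoglycan serglycin that parietal endoderm secretes, was furthest, at 9.80 on mESC 1 against 4.31 to 5.71 on the other pluripotent arrays. Lrp2, the megalin receptor that works with cubilin, read 7.87 on mESC 1 and 5.02 to 7.03 on the others by 1452320_at, with TiPSC 3 the next highest. Tfec, a basic helix-loop-helix factor, read 5.45 on mESC 1 against 3.10 to 3.31. Col4a1 and Lama1, chains of the basement membrane that parietal endoderm lays down, Pdgfra, the receptor that marks primitive endoderm, and Pth1r, the parathyroid hormone receptor of parietal endoderm, were 1.02 to 1.21 above the median. Pth1r was not the highest on mESC 1, at 7.22, as the ViPSC arrays read 7.41 to 7.50. The median deviation of these 47 probe sets on mESC 1 was 0.22. On TiPSC 3, 3 of the 47 were at least 1 log2 unit above, for Fst and Lrp2, against 0.373% of all probe sets. Each remaining array had at most 1.

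Lists with other roles were read on mESC 1 in the same way, where 0.269% of all probe sets were at least 1 log2 unit above. These lists, too, were chosen with earlier results known. Their median deviations there were 0.30 for definitive and anterior endoderm, 0.19 for secreted and transport genes and 0.19 for epiblast and FGF-Erk genes. Of 22 probe sets of definitive and anterior endoderm genes 2 were above by 1 log2 unit on mESC 1. They were those of Hhex, a homeobox factor of anterior endoderm, and Dkk1, a secreted Wnt antagonist. TiPSC 3 also had 2 of the 22, those of Eomes and Trh, against 0.373% of all probe sets. Among 25 probe sets of secreted and transport genes there were 3 on mESC 1, of the protease Ctsh and the trypsin inhibitor Spink1. Spink1 was as high on TiPSC 2, at 7.61 against 7.50 on mESC 1. Alb, the liver albumin, and the apolipoprotein genes of the list were not among them. Of 31 probe sets of epiblast and FGF-Erk genes 1 was above, that of the Erk phosphatase Dusp4, which was higher still on TiPSC 3, at 9.34 against 8.75 on mESC 1. Nanog, the epiblast factor that opposes Gata6, read 12.33 on mESC 1, 12.88 and 13.15 on mESC 2 and mESC 3, and 12.37 to 12.76 on the induced arrays, where the lowest was TiPSC 3.

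Markers of other cells that the arrays could hold stayed under a deviation of 1 log2 unit on mESC 1, a step that 0.269% of all probe sets reached. None of 15 probe sets of fibroblasts and feeders, 19 of ventricular myocytes, 17 of endothelium, 12 of macrophages and blood and 16 of trophoblast was 1 log2 unit above the median of the other pluripotent arrays. Their median deviations on mESC 1 were 0.01, 0.00, 0.11, -0.12 and 0.03. The endothelial list had its highest median level on mESC 1, at 5.56 against 5.09 to 5.54 on the other pluripotent arrays. Its largest deviation there was 0.84. The fibroblast defining gene Thy1 read 6.10 on mESC 1 and 5.96 to 6.46 on the others. Cdh5 of endothelium read 3.85 against 3.58 to 3.86 by 1433956_at, below the array median on each. Of 14 probe sets of pluripotent cells 1 was above, that of Zfp42 (Rex1), at 11.51 on mESC 1 against 9.39 to 10.06. In bulk RNA a few cells with much of a transcript and many cells with little cannot be told apart.

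Gata6, Sox17, Dab2 and Cubn shared their high value on mESC 1. Pearson correlations over the 9 arrays, given as a description because the arrays share groups and normalization, were 0.91 to 0.98 among Gata6, Sox17, Dab2 and Cubn, and without mESC 1 they were -0.63 to 0.30. The probe sets of other genes most like Cubn were Tfec (0.998), Lgals2 (0.996), a galectin gene, and Tmem64 (0.990). Tfec, and Srgn, Zfp42 and Dkk1 below, were already named above for their values on mESC 1. Lgals2 read 5.56 on mESC 1 and 3.59 to 3.70 on the other 8. Without mESC 1 these 3 correlations were 0.66, 0.16 and 0.05. Gata6 was most like Lgals2 (0.980), the member Cubn (0.976) and Tfec (0.974), Dab2 was most like Zfp42 (0.976), Lgals2 (0.975) and Tfec (0.975), and Sox17 was most like Zfp42 (0.940), Srgn (0.939) and Lgals2 (0.935). Foxa2 was most like the zinc finger gene Zfp263 (0.937), Zfp42 (0.922) and Dkk1 (0.915), with 0.93, 0.75 and 0.68 without mESC 1. Hnf4a, Afp and Ttr varied by less than 1 log2 unit by their highest probe sets and were not compared.

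The likenesses of Amn and Sox7 were close to as high when mESC 1 was left out. The probe sets most like Amn were Rian (0.984), Meg3 (0.977) and Mirg (0.976), and without any 1 array these correlations stayed between 0.94 and 0.99. All 3 are noncoding RNAs of the imprinted Dlk1-Dio3 region, made from the maternal chromosome. They were picked by this correlation and share with Amn a step between mESC and induced arrays. Leaving out 1 array could not remove that step. Amn, Meg3 and Rian were higher on mESC 3 than on mESC 2, while Mirg was lower (5.99 against 6.28). Meg3 (1452183_a_at) read 6.31, 6.98 and 6.86 in ViPSC, 7.24, 6.50 and 6.26 in TiPSC and 10.62, 8.64 and 8.86 in mESC. As with Amn, all mESC arrays were above all induced arrays and mESC 1 was the highest. Rian (1427580_a_at) read 4.36 to 4.75 in ViPSC, 4.54 to 4.84 in TiPSC and 8.10, 6.43 and 7.19 in mESC.

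The RefSeq table (GRCm38.p6) places Amn on the same chromosome as these RNAs, at chr12:111271096-111276426, and Meg3 ends 1.70 megabases, Mirg 1.52 megabases and Dio3 0.99 megabases before it. Source cells did not follow this likeness, as Meg3 read 9.98 in VM and 12.59 in TTF, where Amn read 5.29 in VM and 4.79 in TTF. Of 8 other protein-coding genes measured within 300 kilobases of Amn, none passed in either comparison with mESC. Of all probe sets only 1.22% in ViPSC and 0.213% in TiPSC passed, so this count says little about the neighbourhood. The differences of these genes lay between -0.33 and 0.16 log2 units (lowest limma adjusted p = 0.275). Lbhd2, Exoc3l4 and Gm266 among them averaged below the array median. Sox7, on chromosome 14, was most like the lipid kinase Pi4k2a (0.917), Rian by its second probe set (0.906) and the transporter gene Slc23a4 (0.898), with 0.89, 0.86 and 0.91 without mESC 1.

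**Figure D4:**
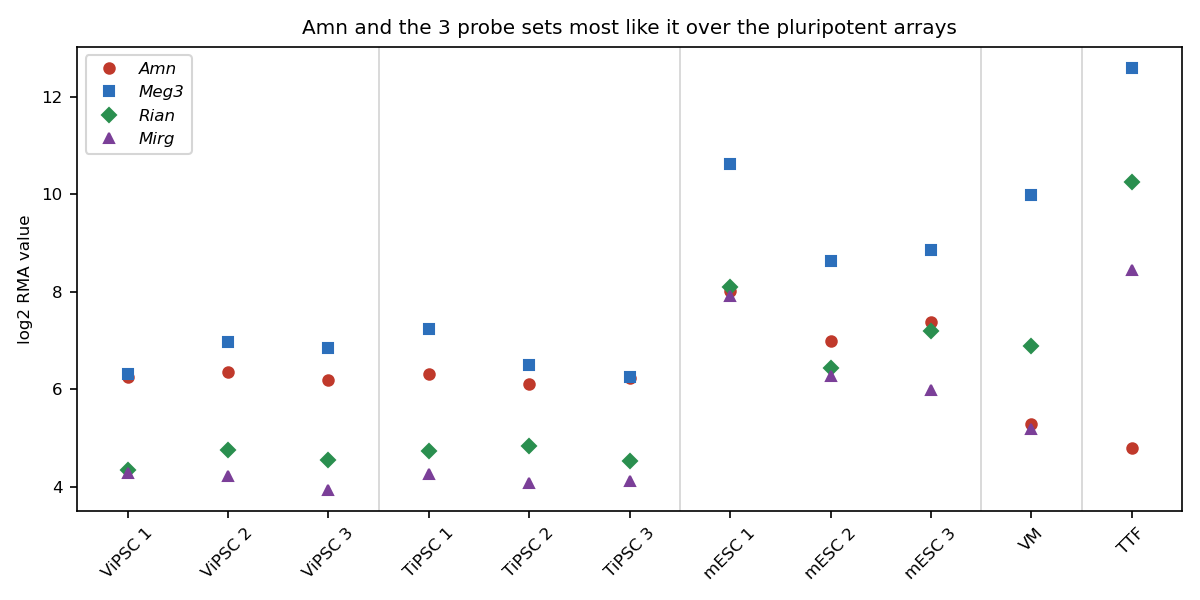
Log2 RMA values (vertical axis) of Amn and of the 3 probe sets most like it over the pluripotent arrays, Meg3, Rian and Mirg, on all 11 arrays, 1 point per array and gene. All 4 are higher on the 3 mESC arrays than on the 6 induced arrays, and on TTF Meg3 is at 12.59 while Amn is at 4.79.

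The source cells differed most in 3 of the 5 transcription factors, Gata6, Sox17 and Sox7. VM was at least 2 log2 units above TTF for 6 of the 28 endoderm probe sets, against 3.34% of all, and below it for none, against 3.26% of all. These were 2 each of Gata6 (5.89 and 5.36 higher) and Sox17 (5.32 and 5.27 higher) and 1 each of Sox7 (5.78) and Ttr (3.06, 1454608_x_at, at 6.24 in VM against 3.18 in TTF). The other Ttr probe sets were 0.99 to 1.98 higher in VM. Markers of other cells were read in VM and TTF as well. The median of the endothelial list was 9.47 in VM and 4.38 in TTF. Cdh5, an endothelial gene, read 11.61 in VM and 3.72 in TTF. The myocyte list was at 14.12 in VM and 3.70 in TTF, the macrophage and blood list at 5.60 in VM and 5.79 in TTF, and the fibroblast list at 8.80 in VM and 13.26 in TTF. Their part in the values of Gata6, Sox17, Sox7 and Dab2 was not tested. Dab2 was alike in both source arrays by 1420498_a_at, while 1423805_at read 5.39 in VM and 6.79 in TTF. Cubn, Amn, Foxa2, Hnf4a and Afp differed by less than 1 log2 unit between VM and TTF.

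The genes that set VM apart from TTF, and Dab2, were lower in ViPSC than in VM. All 3 ViPSC arrays were at least 2 log2 units below VM for 8 of the 28 probe sets, against 4.86% of all, and above it for none, against 4.21% of all. The mean difference was -6.49 ± 0.17 for Gata6 (1425464_at), -4.75 ± 0.05 for Sox17 (1421657_a_at), -4.56 ± 0.11 for Sox7, -4.15 ± 0.23 for Dab2 (1420498_a_at) and -2.99 ± 0.15 for Ttr (1454608_x_at), where the SD is over the 3 ViPSC arrays and the single VM array has no error. TiPSC lay at least 2 log2 units below TTF for 2 of the 28, against 4.45% of all, and above it for none, against 2.99% of all. Both were Dab2 probe sets, with mean differences of -3.83 ± 0.16 and -3.58 ± 0.14 (SD over 3 TiPSC arrays). No test was made with 1 source array each. Amn was higher in the pluripotent cells: ViPSC read 6.20 to 6.35 against 5.29 in VM, and TiPSC 6.10 to 6.31 against 4.79 in TTF.

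Related genes outside the 10 were counted by gene in the same limma fit. Of 26 other primitive, visceral and parietal endoderm genes, none passed in ViPSC against mESC, 1 was lower in TiPSC than in mESC, and 3 were higher and 1 lower in ViPSC than in TiPSC. Of all probe sets 1.22%, 0.213% and 3.91% passed in these comparisons, in either direction. The median log2 differences of the list were 0.03, -0.09 and 0.11 in these comparisons, and those of all probe sets -0.01, 0.01 and -0.02. Sparc, the matricellular protein of parietal endoderm and fibroblasts, was -0.78 ± 0.08 in TiPSC against mESC (SE, limma adjusted p = 0.0117) and 1.06 ± 0.08 in ViPSC against TiPSC (adjusted p = 0.000847). By 1416589_at it read 11.34 to 11.40 in ViPSC, 10.22 to 10.38 in TiPSC and averaged 11.09 in mESC, so TiPSC was the low group. Pth1r was 1.41 ± 0.30 higher in ViPSC than in TiPSC (limma adjusted p = 0.0335) and Thbd, the anticoagulant receptor thrombomodulin, 0.55 ± 0.11 higher (adjusted p = 0.0286), while Lamc1, a laminin chain, fell by 0.48 ± 0.09 (adjusted p = 0.0276).

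Among 16 other secreted and transport genes only Apoc2, an apolipoprotein, passed, with 6.42 to 6.50 in ViPSC and 4.72 to 5.25 in TiPSC (difference 1.53 ± 0.17, SE, limma adjusted p = 0.00323). Of 15 epiblast and FGF-Erk genes, Grb2, the adaptor that couples FGF receptors to Ras, was 0.57 ± 0.10 higher in ViPSC than in TiPSC (limma adjusted p = 0.0161). Sparc, Grb2 and Krt19 lie on chromosome 11, where the median ViPSC minus TiPSC difference over 644 genes with a mean of at least 7 was 0.44, against -0.03 over all 7465 such genes. Its part in the values of these genes was not tested. Over all 9 arrays, no gene of the 18 definitive and anterior endoderm genes passed in any comparison. The largest difference there was that of Krt19, a simple-epithelial keratin, which was 1.42 ± 0.45 in ViPSC against mESC (SE, limma adjusted p = 0.171). The chromosome 11 median is for ViPSC minus TiPSC, and none was taken against mESC.

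Against the other mESC arrays, without mESC 1, more of these genes passed in limma. So did more of all probe sets, with 8.36% in ViPSC and 9.61% in TiPSC. Of the 26 primitive, visceral and parietal endoderm genes, 6 were higher and 1 lower in ViPSC, and 3 were higher and 2 lower in TiPSC. Lama1 was 1.07 ± 0.24 log2 units higher in ViPSC (SE, limma adjusted p = 0.0266) and 1.09 ± 0.24 higher in TiPSC (adjusted p = 0.0230). Sparc was -0.79 ± 0.10 in TiPSC (SE, limma adjusted p = 0.00171), close to its value with all arrays. Of the 18 definitive and anterior endoderm genes, 3 were higher in ViPSC and 4 in TiPSC, and none was lower. Krt19 was 1.88 ± 0.38 higher in ViPSC (SE, limma adjusted p = 0.0180). Of the 16 secreted and transport genes, 2 were higher and 1 lower in ViPSC, and 1 was higher and 3 lower in TiPSC. Of the 15 epiblast and FGF-Erk genes, Etv5 and Dusp6 were higher in both kinds of induced cells, and 2 were lower in TiPSC. Etv5 was 1.31 ± 0.12 higher in ViPSC and 1.34 ± 0.12 in TiPSC (SE, limma adjusted p = 0.000539 and 0.000434). Dusp6 was 1.04 ± 0.12 and 1.13 ± 0.12 higher (adjusted p = 0.00176 and 0.00127). In TiPSC, Prdm14 was at -1.35 ± 0.23 (adjusted p = 0.00856) and Nanog at -0.54 ± 0.11 (SE, limma adjusted p = 0.0179).

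Markers of other cells also differed between the induced groups, where no endoderm probe set passed. By gene, 4 of 8 trophoblast markers were higher in ViPSC than in TiPSC in limma (Plac1, Krt7, Gata3 and Ascl2). So were 2 of 10 endothelial markers (Pecam1 and Cldn5) and 2 of 9 of macrophages and blood (Cd68 and Csf1r). Of all probe sets 3.91% passed there, in either direction. Plac1, a placental gene, was 2.56 ± 0.34 log2 units higher (SE, limma adjusted p = 0.00731) and Pecam1, an endothelial adhesion molecule, 1.33 ± 0.21 (adjusted p = 0.0126). Pecam1 and Cd68 also lie on chromosome 11, with the shift given above. None of the fibroblast, myocyte or pluripotency markers passed between ViPSC and TiPSC. Against all mESC arrays, Cldn5 and Ascl2 were higher in ViPSC and no marker passed in TiPSC, against 1.22% and 0.213% of all probe sets. Without mESC 1, 3 of 10 endothelial, 3 of 10 myocyte, 2 of 8 trophoblast and 1 of 9 macrophage and blood markers were higher in ViPSC, and 1 of 10 pluripotency markers was higher and 1 lower. In TiPSC, 2 of 9 fibroblast, 1 of 10 myocyte and 1 of 10 endothelial markers were then higher. There 2 each of the endothelial, trophoblast and pluripotency markers were lower. Without mESC 1, 8.36% of all probe sets passed in ViPSC and 9.61% in TiPSC, in either direction. The part of these cells in the values of Pth1r, Thbd, Sparc and Apoc2 was not tested.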

How the data were processed

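RNA of 11 cell samples was measured on Affymetrix mouse gene arrays, 1 per sample. The authors deposited log2 values from RMA, per the submitters' processing notes. The version is not given in the sources used here. Probe sets were named from the platform annotation, which gave 1 symbol for 34945 probe sets, several for 932 and none for 9160 of the 45037 that are not controls. The 64 control probe sets were left out. Groups were taken from the sample titles. Group means over the 9 pluripotent arrays were compared with limma 3.58.1 in R 4.3.3 (lmFit and eBayes, 6 residual degrees of freedom), with Benjamini-Hochberg adjustment over all 45037 probe sets and a threshold of 0.05, and the code was tested on simulated data. VM and TTF, with 1 array each, were described by differences of at least 2 log2 units in all induced arrays, with no test. A gene counted once in a list if its probe set of highest mean passed. Named genes were all members, the genes of each other list past the threshold (at most 8 a list and comparison, and in a list with none the gene of largest difference), and for each member that ranged by at least 1 log2 unit over the pluripotent arrays the 3 probe sets of highest Pearson correlation. The other list genes named for their values on mESC 1, with Thy1, Cdh5, Pou5f1 and Nanog, were chosen after their values were seen. So were Lama1 and the epiblast and FGF-Erk genes named without mESC 1. The members and lists were chosen with earlier results of these data known. Replicate numbers did not pair arrays: deviations of arrays with the same number correlated at -0.26 to 0.07. Alternatives were the array subset, probe set summaries, array weights, a replicate block and leaving out each array. The list counts and the counts of groups that do not overlap without mESC 1 were added after seeing the data. For arrays, the number of them limits the precision.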

Additional observations from a re-analysis of the deposited data

How the results depend on the processing

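Counts are probe sets at an adjusted p of 0.05 in limma. In ViPSC against mESC, 1 endoderm probe set and 551 of all passed. With only the 6 compared arrays these were 0 and 135, with a replicate block 0 and 104, with the mean of a gene's probe sets 298 of all and with array weights 2579 of all. Leaving out 1 array gave 0 to 2 endoderm probe sets and 22 to 3765 of all. In TiPSC against mESC, 0 and 96 passed (unadjusted p under 0.05 for 6639 of all). It was 1 endoderm probe set with 1 probe set per gene and 2 with array weights, and of all 5 with the 6 compared arrays, 1120 with weights and 13 with a replicate block. Leaving out 1 array gave 0 to 2 and 11 to 4326. In ViPSC against TiPSC, 0 and 1761 passed, and of all 4342 with the 6 arrays, 1024 with 1 probe set per gene, 904 with the mean, 5005 with weights and 977 with the block. Leaving out 1 array gave 0 and 321 to 3086. Amn kept its direction in ViPSC against mESC under 18 alternatives, at -1.44 to -0.92 with limma adjusted p from 0.00357 to 0.163. Its call was lost in 8, those without any 1 ViPSC or TiPSC array, the 6 compared arrays (0.113) and the replicate block (0.0660). At a step of 1 log2 unit, 1 endoderm probe set was lower in VM than in TTF and 1 higher in TiPSC than in TTF, against 0 for each at 2. Leaving out 1 array, 8 to 9 were lower in ViPSC than in VM and 2 in TiPSC than in TTF. The causes were not tested. Values near the array median have no detection call, which limits Foxa2, Hnf4a, Afp and Ttr.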
